A study of Mus musculus with 10 samples.

Results

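The genes described here are 33 genes of the lysosome, the acid compartment in which cells break down proteins, sugars and lipids. They were chosen by name, with earlier results of these data known, as every probe whose platform gene symbol was one of the 33. They were read by 71 of the 45281 probes on the array and make up 33 of the 19057 genes it holds. The set has 11 proteases (the cathepsins Ctsa, Ctsb, Ctsc, Ctsd, Ctsh, Ctsk, Ctsl, Ctss and Ctsz, the asparaginyl endopeptidase Lgmn and the tripeptidyl peptidase Tpp1), 10 enzymes that act on sugars or lipids, the precursors Psap and Grn, 5 membrane proteins, 4 proton pump subunits and the transcription factor Tfeb.

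The study asked how fat cells and macrophages communicate through what they secrete, and measured messenger RNA (mRNA) on 10 Illumina bead arrays in 4 groups. Bilayer adipocytes (3 arrays) were 3T3-L1 cells, a mouse embryo fibroblast line turned into fat-storing cells over 8 days with isobutylmethylxanthine, dexamethasone and insulin, and then kept for 24 h below macrophages that sat on a porous polycarbonate filter (pores of 0.4 µm). Monolayer adipocytes (3 arrays) were the same differentiated cells without macrophages. Bilayer macrophages (2 arrays) were RAW 264.7 cells, a mouse macrophage line, from the upper side of that filter, and monolayer macrophages (2 arrays) were RAW 264.7 cells without adipocytes. The labels name no genetic change, give DMEM with fetal bovine serum as the medium of both lines, and state 2 or 3 biological replicates a group, each a pool of 5 dishes. Each cell type is 1 line, and the labels do not say whether monolayer dishes held a membrane insert, so a bilayer difference also contains any effect of insert, medium volume or total cell number.

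As background, lysosomal enzymes are made in the endoplasmic reticulum, tagged with mannose 6-phosphate and delivered to an organelle that a proton pump, the V-ATPase, keeps acid. The transcription factor TFEB and its relatives bind an E-box in the promoters of many lysosomal genes. Macrophages are rich in lysosomes and use them to digest what they engulf, and in fat tissue they take up lipid released by adipocytes. Adipocytes use lysosomal acid lipase for a share of their lipid turnover, beside the neutral lipases at the lipid droplet.

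The palindrome CACGTG is the core of that E-box, and the promoters are shown because the members are commonly treated as one regulated set. RefSeq promoter windows (build GRCm38.p6, from 250 bases before to 50 after an annotated start) were held for 28 of the 33 genes. CACGTG, which reads the same on both strands, was present in 12 of these 28 genes (42.9%), against 8.09% of the 27025 genes with a window. Counted over windows, it was in 12 of 33 (36.4%), against 7.15% of all 32851. The longer TCACGTGA, which contains CACGTG, was in 6 of the 28 genes (21.4%), against 1.12% of all genes. The palindrome longer by G before and C after, which contains both, was in 0 of the 33 windows, against 0.326% of all windows. Other lysosomal enzymes, membrane proteins and pump subunits carried CACGTG in 13 of 83 genes (15.7%). A match is a run of letters in a window, not evidence of binding. The nearest match to the start of each gene but Lamp1, which follows on its own, is printed with 10 flanking bases, the core in capitals and each sequence running 5′ to 3′ on the strand of its gene.
Ctsa, chr2:164833768-164833793, plus strand: tgcagatgctCACGTGaccagagcta
Ctsd, chr7:142387910-142387935, minus strand: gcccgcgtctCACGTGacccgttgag
Ctsl, chr13:64370741-64370766, minus strand: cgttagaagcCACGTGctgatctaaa
Lgmn, chr12:102439126-102439151, minus strand: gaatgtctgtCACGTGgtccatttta
Glb1, chr9:114401020-114401045, plus strand: gcttctgagtCACGTGgcctacagag
Gaa, chr11:119267813-119267838, plus strand: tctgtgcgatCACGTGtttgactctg
Gla, chrX:134601184-134601209, minus strand: agatctcggtCACGTGagcaactctc
Naglu, chr11:101070011-101070036, plus strand: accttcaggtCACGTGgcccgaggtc
Mcoln1, chr8:3500464-3500489, plus strand: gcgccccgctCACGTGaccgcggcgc
Atp6v0d1, chr8:105566052-105566077, minus strand: ctactgcggtCACGTGagacgcggtg
Atp6v1a, chr16:44139375-44139400, minus strand: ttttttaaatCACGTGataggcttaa

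Lamp1, a major glycoprotein of the lysosomal membrane, had 4 matches, the most of any member, all within the 80 bases before its start on the plus strand of chr8:13159081-13159160. That stretch is printed whole to show their spacing.
Lamp1: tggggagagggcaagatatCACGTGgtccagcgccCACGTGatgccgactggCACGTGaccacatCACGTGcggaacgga

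Lipa, Gusb and Neu1, which carried most of the bilayer differences described next, had no CACGTG in their windows. The 250 bases before the start of Lipa lie on the minus strand of chr19:34527475-34527724 and are printed because Lipa was the member that passed in both lines.
Lipa: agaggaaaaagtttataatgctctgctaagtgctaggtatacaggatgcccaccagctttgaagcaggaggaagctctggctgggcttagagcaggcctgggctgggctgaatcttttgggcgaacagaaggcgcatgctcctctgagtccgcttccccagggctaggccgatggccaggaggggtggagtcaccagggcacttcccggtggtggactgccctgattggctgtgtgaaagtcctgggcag

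**Figure D1:**
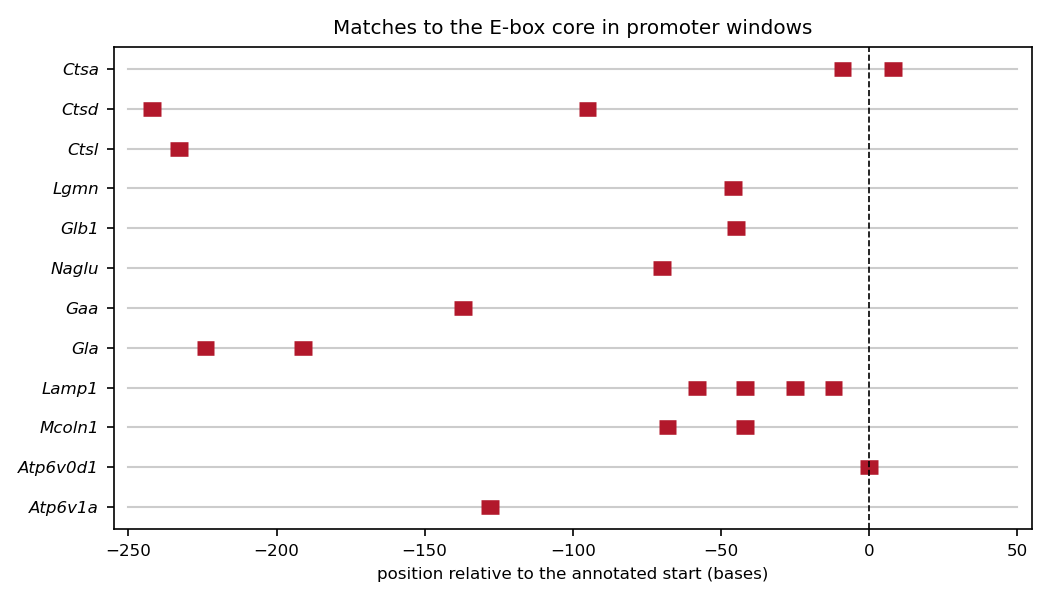
Position of each CACGTG match (red) in the promoter windows of the 12 genes that have one; the horizontal axis is the distance in bases from the annotated start (dashed), and each grey line is a window. Of the 19 matches, 13 lie within 100 bases before the start or in the 50 bases after it, and Lamp1 has 4.

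Values are deposited normalized probe intensities, and a probe was taken as above noise where it exceeded 10.9 intensity units. The brightest passing probe stood for each gene, and levels of different probes are not set against each other, since a bead array does not put them on a common scale. Of the 33 genes, 27 were above noise on every bilayer adipocyte array, 26 on every monolayer adipocyte array and 31 on every array of each macrophage group. Ctsc, Ctsh and Gpnmb were above noise on no adipocyte array, and Ctsk on no macrophage array. Atp6v0d2, an isoform of the pump's d subunit known from osteoclasts, was above noise on none of the 10 arrays (highest value -0.11) and was not tested. The lines matched their labels: of 11 adipocyte markers, all 11 were above noise on every adipocyte array, and of 11 macrophage markers, 10 were above noise on every array of each macrophage group. No macrophage marker was above noise on every array of an adipocyte group. Markers of fibroblasts and preadipocytes were also present in the adipocyte cultures, with 9 of 10 above noise on every array.

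The first question was how the lysosomal genes of adipocytes differed below macrophages. Lysosomal acid lipase (Lipa), protective protein cathepsin A (Ctsa) and the sialidase Neu1 were higher in bilayer adipocytes, and beta-glucuronidase (Gusb) was lower. These were 4 of the 29 genes that could be tested, and over all genes 10.9% were called in this comparison, so the share is close to the background. A limma fit with Benjamini-Hochberg adjustment over all tested genes was used throughout, with calls at an adjusted p under 0.05. Of all genes tested, 5.67% were called higher and 5.26% lower. The median difference of the 29 was 0.08 on the log2 scale, beside -0.01 over all genes tested.

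Lipa cleaves cholesteryl esters and triglycerides that reach the lysosome. Its intensity was 1692, 2212 and 1499 on the bilayer adipocyte arrays, against 1395, 1270 and 1239 on the monolayer adipocyte arrays. The groups did not overlap, and bilayer array 2 was the highest. The difference was 0.45 on the log2 scale (SE 0.10, 1.36-fold, adjusted p = 0.00774), and it was 0.29 with bilayer array 2 left out (adjusted p = 0.0316). The second Lipa probe read 1040, 1218 and 819 in bilayer adipocytes, against 739, 666 and 594 in monolayer adipocytes. It differed by 0.60 (SE 0.11, adjusted p = 0.00147 over all probes). Macrophage markers were at or near 0 in these samples: the 11 summed to between 6.1 and 32.1 units on the bilayer adipocyte arrays and between -6.5 and 33.8 on the monolayer ones, beside 64133 to 66349 on the bilayer macrophage arrays.

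Ctsa is a serine carboxypeptidase that, as a scaffold, holds Neu1 and the beta-galactosidase Glb1 in one complex and protects them from breakdown. Ctsa read 448, 449 and 482 in bilayer adipocytes, against 299, 348 and 370 in monolayer adipocytes. Every bilayer value lay above every monolayer value, with a difference of 0.43 (SE 0.09, 1.34-fold, adjusted p = 0.00377). The gene's next brightest probe, at 39.8 to 63.4 units in bilayer and 48.5 to 56.3 in monolayer adipocytes, differed by 0.05 (adjusted p = 0.914 over all probes), and with the mean of all passing probes the call was lost (0.27, adjusted p = 0.236). Neu1 removes sialic acid from glycoproteins and glycolipids. It read 2412, 1934 and 2186 in bilayer adipocytes, against 1716, 1746 and 1861 in monolayer adipocytes, again without overlap. The difference was 0.29 (SE 0.07, 1.22-fold, adjusted p = 0.0174). It lost the call without monolayer array 1 (0.26, adjusted p = 0.0794), without monolayer array 2 (0.28, adjusted p = 0.0694) and without bilayer array 1 (0.21, adjusted p = 0.0794). The partner of the complex, Glb1, did not pass, at 1346, 1377 and 1323 in bilayer adipocytes, against 1362, 1372 and 1448 in monolayer adipocytes (-0.05, SE 0.06).

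Gusb removes glucuronic acid from glycosaminoglycans such as heparan and dermatan sulphate. It read 2082, 1994 and 1902 in bilayer adipocytes, against 2551, 2294 and 2556 in monolayer adipocytes. The highest bilayer value lay below the lowest monolayer value, and the level fell by 0.30 on the log2 scale (SE 0.06, adjusted p = 0.00469). All 4 Gusb probes were lower in bilayer adipocytes, with differences of -0.30, -0.31, -0.39 and -0.56 and adjusted p between 0.00568 and 0.0448 over all probes.

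**Figure D2:**
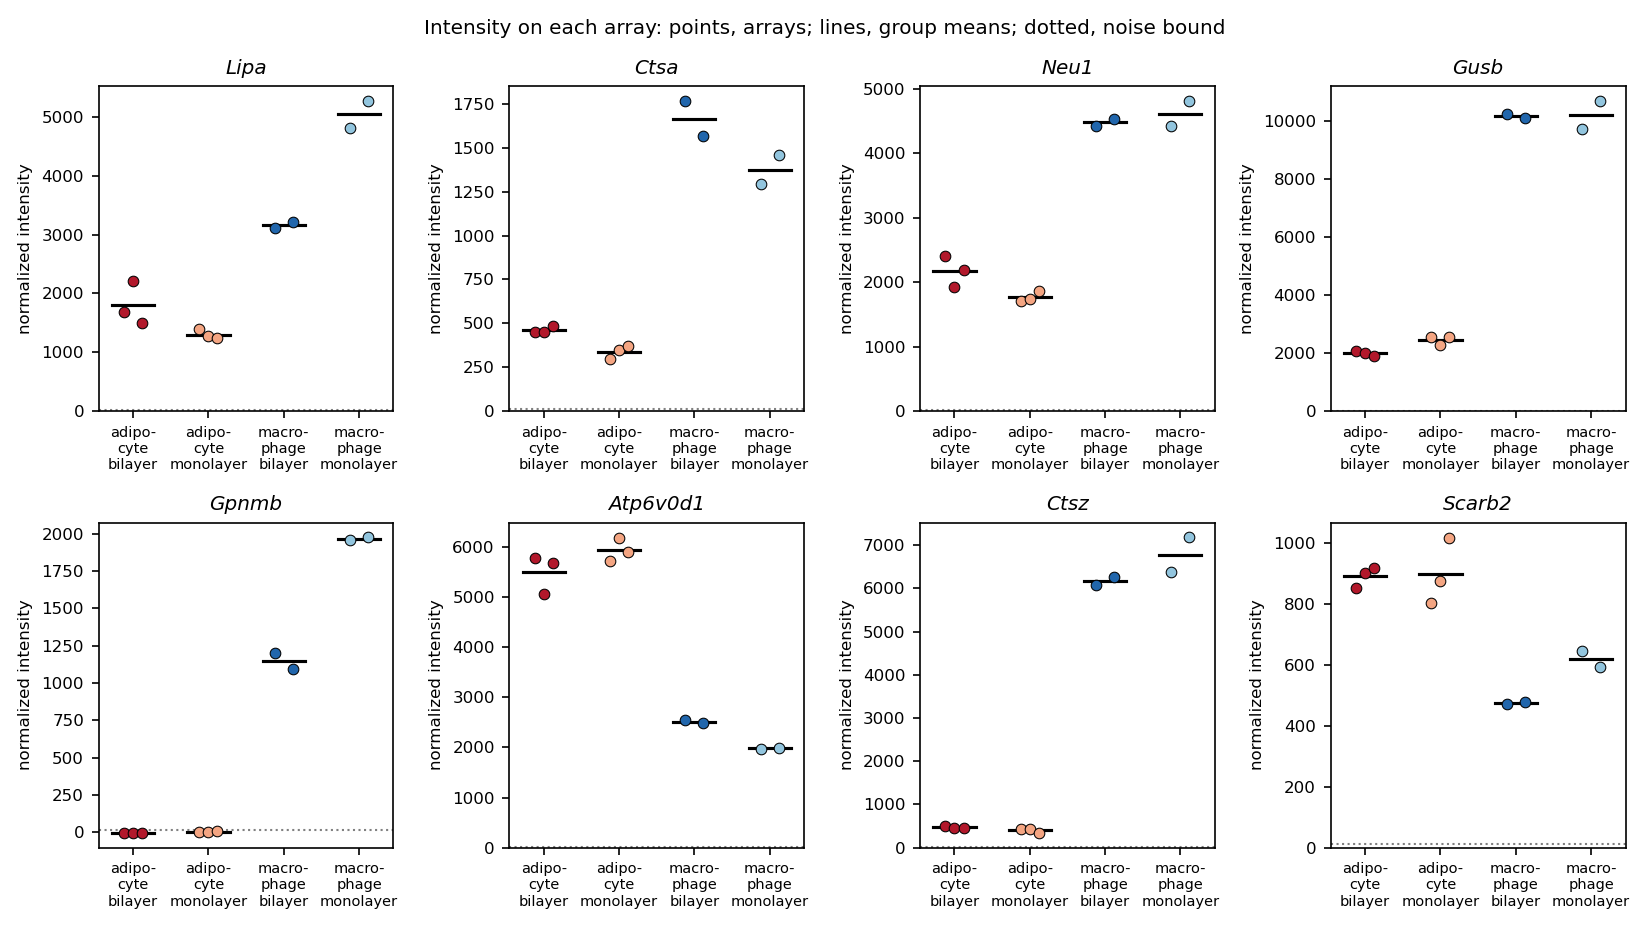
Normalized intensity (vertical axis, linear) of the brightest probe of 8 genes on each array; points are arrays, black lines group means, and the dotted line is the noise bound of 10.9 units. Lipa is higher in bilayer than monolayer adipocytes and lower in bilayer than monolayer macrophages, and Gpnmb is at noise on all adipocyte arrays.

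The other 25 tested genes did not pass in adipocytes, with differences between -0.11 and 0.41 on the log2 scale, of which 22 were smaller than 0.20 in size. The widest of these were in dim probes: Ctss differed by 0.41 (SE 0.25) and Ctsl by 0.37 (SE 0.20). Ctss, which in immune cells trims the invariant chain of MHC class II, read 20.5, 11.7 and 14.1 in bilayer adipocytes, against -0.311, 3.31 and 26.3 in monolayer adipocytes, so the groups overlapped, and it passed once monolayer array 3 was left out (0.83, adjusted p = 0.00691). The carboxypeptidase Ctsz read 508, 457 and 448 in bilayer adipocytes, against 439, 422 and 331 in monolayer adipocytes. Its difference of 0.24 did not pass (adjusted p = 0.0996), while its second probe differed by 0.32 (adjusted p = 0.0171 over all probes). Scarb2 (LIMP-2), the receptor that carries glucocerebrosidase to the lysosome, differed between its probes. The brighter read 852, 902 and 917 in bilayer adipocytes, against 802, 875 and 1016 in monolayer adipocytes (-0.01). The dimmer read 119, 90.6 and 130 in bilayer adipocytes, against 84.0, 57.4 and 59.2 in monolayer adipocytes (0.64, adjusted p = 0.0412 over all probes).

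By role, 1 of 9 tested proteases was called in adipocytes (median difference 0.15), 3 of 10 sugar and lipid enzymes (median 0.06) and 0 of 4 membrane proteins (median 0.13). None of the 3 tested pump subunits passed, and all 3 differences were below 0 by the brightest probe: -0.11 for Atp6v0d1, -0.03 for the catalytic subunit Atp6v1a and -0.11 for the regulatory subunit Atp6v1h. The other 3 probes of Atp6v0d1 gave 0.09, -0.24 and -0.13, so its sign depended on the probe. Tfeb itself was dim, at 5.83, 8.83 and 15.7 units in bilayer adipocytes, against 12.7, 7.42 and 13.7 in monolayer adipocytes, and its difference of -0.07 did not pass. Of the 12 tested genes with CACGTG in their window, 1 was called (Ctsa) and the median difference was 0.10. Of the 14 with a window and no CACGTG, 3 were called and the median was 0.08.

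The rest of the organelle was read from a list of 96 other lysosomal genes on the array, of which 79 could be tested in adipocytes. Of these 79, 2 were called higher and 2 lower, while over all genes 5.67% were called higher and 5.26% lower. The median difference of the 79 was -0.03, beside -0.01 over all genes tested. The cholesterol exporter Npc1, which moves the sterol that acid lipase sets free out of the lysosome, averaged 1492 ± 82.5 in bilayer adipocytes and 1084 ± 9.02 in monolayer adipocytes (SD, n = 3 each), a difference of 0.45 (adjusted p = 0.00012). Litaf, a membrane protein of late endosomes, was also higher (0.37), and the aspartic protease Ctse (-0.47) and the pump subunit Atp6v0a2 (-0.29) were lower. Among 25 tested autophagy genes, which bring cargo to the lysosome, 2 passed: the initiating kinase Ulk1 differed by 0.81 and the cargo receptor Sqstm1 by 0.34. Among 17 tested relatives of TFEB and nutrient sensors, only Rptor, the mTORC1 subunit, passed (-0.44). Of 17 tested genes for sorting lysosomal enzymes, none passed the limma test, with 4 at an unadjusted p under 0.05.

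The second question was the same comparison in macrophages. Lipa was lower in bilayer macrophages and was the 1 gene of 31 tested that passed, in a comparison where 0.678% of all genes were called (0.504% higher, 0.174% lower). Its intensity was 3112 and 3217 on the bilayer macrophage arrays, against 4819 and 5261 on the monolayer macrophage arrays, and the groups did not overlap. With 2 arrays a group, a lack of overlap says little. Ctsc, Ctsh and Tfeb did not overlap either, at unadjusted limma p of 0.499, 0.509 and 0.489. The Lipa level fell by 0.67 on the log2 scale (SE 0.13, adjusted p = 0.0343). The second probe read 1691 and 1593 in bilayer macrophages, against 2640 and 2669 in monolayer macrophages, and differed by -0.69 (adjusted p = 0.0509 over all probes). With 2 arrays a group the call was lost when any of the 4 was left out: the difference was -0.64 without bilayer array 1, -0.69 without bilayer array 2, -0.73 without monolayer array 1 and -0.60 without monolayer array 2. The adjusted p was then between 0.171 and 0.32, in a fit that takes the lone array to vary like the other groups. The 11 adipocyte markers summed to 3430 to 4081 units on the bilayer macrophage arrays and 4614 to 4632 on the monolayer ones, with 2 of 11 above noise on every array of each group. Most of that sum was Lpl, lipoprotein lipase, which macrophages also make, at 3724 ± 433 in bilayer macrophages and 4569 ± 4.00 in monolayer macrophages (SD, n = 2 each; -0.30, adjusted p = 0.143). Adipoq, the adipocyte hormone adiponectin, averaged 3.01 ± 3.19 in bilayer macrophages, not above noise, and 15.5 ± 4.87 in monolayer macrophages (SD, n = 2 each), and was called at least 1.17-fold lower (adjusted p = 0.0156). Their part in the Lipa difference was not tested.

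Of the 30 genes that did not pass in macrophages, 22 differed by less than 0.20 in size. The median difference of the 31 was -0.06, beside a median of 0.00 over all genes tested, and 8 genes including Lipa had an unadjusted p under 0.05. Gpnmb, a transmembrane glycoprotein of lysosomes and melanosomes that lipid-laden macrophages make in large amounts, read 1203 and 1095 in bilayer macrophages, against 1956 and 1977 in monolayer macrophages. Its groups did not overlap, and its difference of -0.77 (SE 0.17) missed the threshold (adjusted p = 0.0623). With a pseudocount of 64 in place of 16 it passed (-0.74, adjusted p = 0.000862). The pump subunit Atp6v0d1 read 2546 and 2484 in bilayer macrophages, against 1978 and 1997 in monolayer macrophages (0.34, SE 0.08, adjusted p = 0.0673). Scarb2 read 472 and 477 in bilayer macrophages, against 645 and 591 in monolayer macrophages (-0.37, adjusted p = 0.165). Gpnmb, Atp6v0d1 and Scarb2 all passed when the macrophage arrays alone were fitted, with adjusted p between 1.28e-05 and 0.0486. In the main fit, the other tested probes gave -0.46 and 0.005 for Gpnmb and 0.11, the opposite direction, for Scarb2. Those of Atp6v0d1 gave 0.26, 0.22 and 0.22, and none of these other probes passed over all probes. The abundant cysteine protease Ctsb read 14383 and 15090 in bilayer macrophages, against 16686 and 18154 in monolayer macrophages, without overlap (-0.24, adjusted p = 0.217).

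Of the 96 other lysosomal genes, 79 could be tested in macrophages, and 1 was higher and 1 lower, while over all genes 0.504% were called higher and 0.174% lower. The median difference of the 79 was -0.04. The hyaluronidase Hyal1 averaged 70.6 ± 3.44 in bilayer macrophages and 13.1 ± 3.64 in monolayer macrophages (SD, n = 2 each), a difference of 1.58 (adjusted p = 0.0393). The dipeptidyl peptidase Dpp7 was lower (-0.47), as was Gnptg, a subunit of the enzyme that makes the mannose 6-phosphate tag (-0.42), 1 of 18 tested sorting genes. None of 25 tested autophagy genes passed the limma test, with 5 at an unadjusted p under 0.05.

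**Figure D3:**
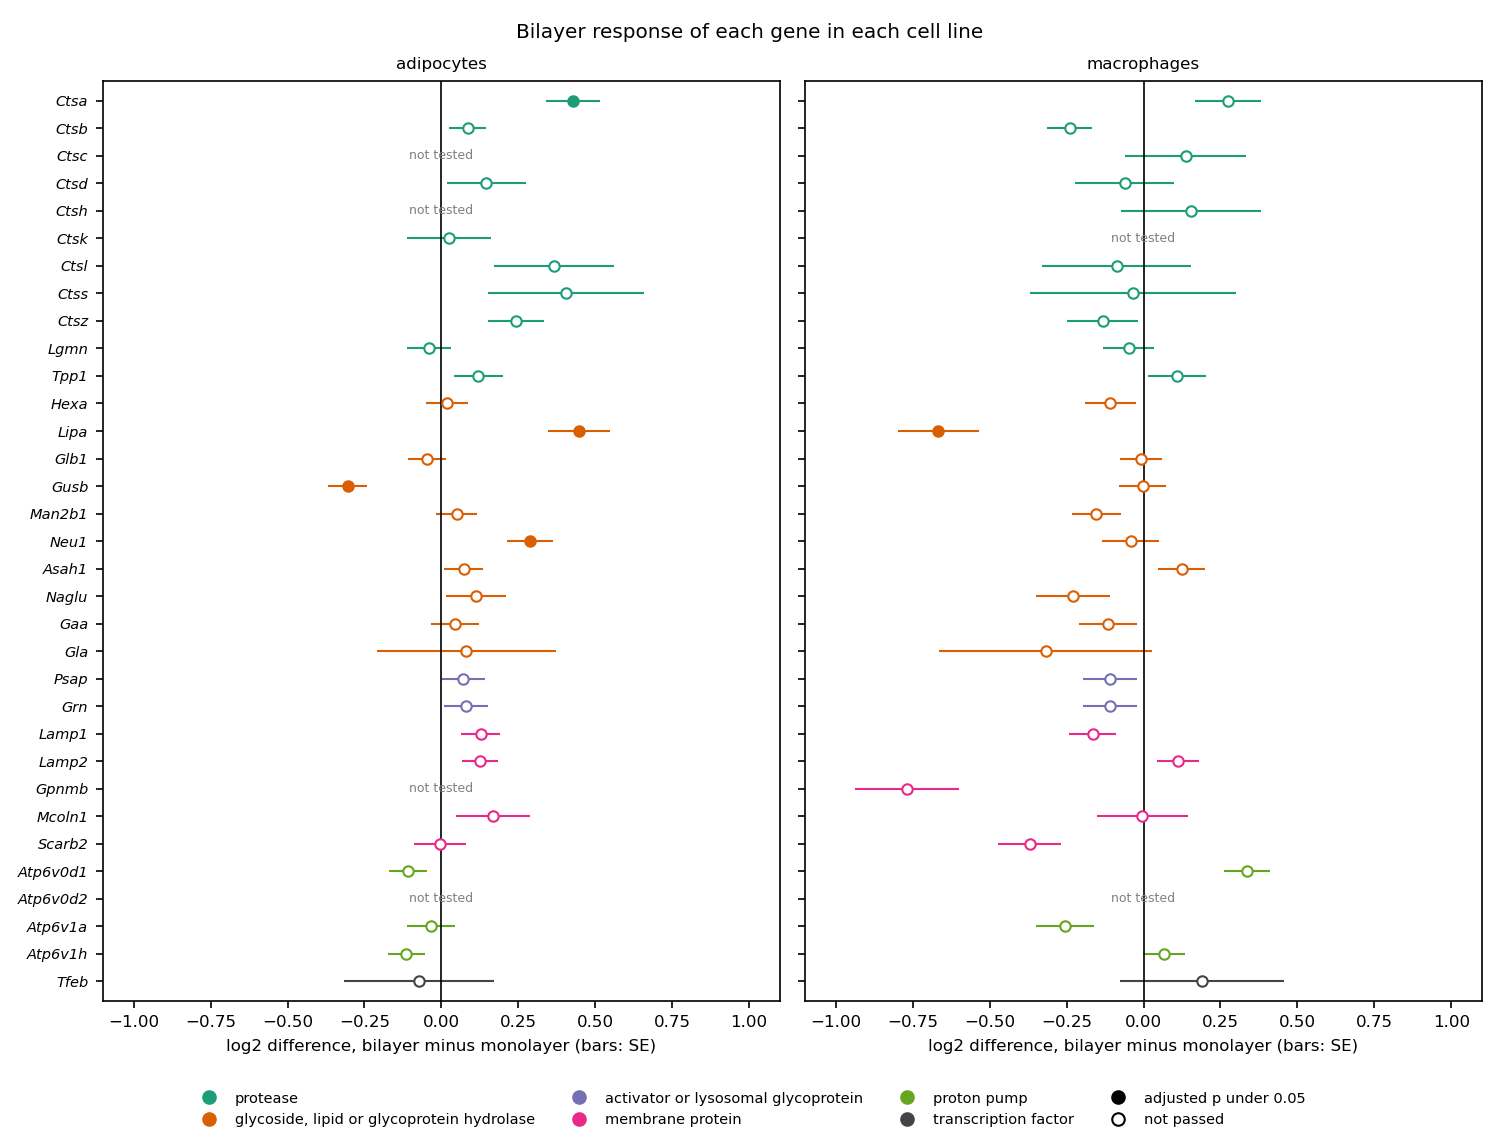
Log2 difference, bilayer minus monolayer, of each of the 33 genes in adipocytes (left) and macrophages (right), with bars for the standard error and colours for roles. Filled points have an adjusted p under 0.05: Ctsa, Lipa, Neu1 and Gusb in adipocytes, and Lipa in macrophages, where it points the other way.

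The design also asks whether the lines differed in their response, which was tested as the adipocyte bilayer difference minus the macrophage one. Of 32 tested genes, 2 passed, Lipa and Atp6v0d1, and 2.56% of all genes did (1.5% higher, 1.05% lower). Lipa had the largest value of the set, with 0.45 in adipocytes and -0.67 in macrophages, a difference of 1.11 (SE 0.17, adjusted p = 0.00362). Its second probe gave 1.29 (SE 0.18, adjusted p = 0.00304 over all probes). Leaving out any 1 array kept this call. It was lost with no filter on dim probes (adjusted p = 0.0802) and without the variance trend (adjusted p = 0.0701).

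Atp6v0d1 belongs to the membrane sector of the proton pump. It read 5778, 5067 and 5692 in bilayer adipocytes, against 5717, 6183 and 5912 in monolayer adipocytes, where the groups overlapped. By the brightest probe, the response was -0.11 in adipocytes, where the sign depended on the probe, and 0.34 in macrophages. The difference between these responses was -0.45 (SE 0.10, adjusted p = 0.0263). The other 3 probes of the gene gave -0.17, -0.45 and -0.34, and none passed over all probes. Without adipocyte monolayer array 2 or 3 the call was lost (-0.42 and -0.45, adjusted p = 0.0684 and 0.0526), as it was without macrophage bilayer array 1 or 2 (-0.43 and -0.46, adjusted p = 0.111 and 0.0865) and without macrophage monolayer array 1 or 2 (-0.44 and -0.45, adjusted p = 0.0967 and 0.0942).

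Ctsz did not pass with its brighter probe (0.38) and did with its second (0.57, adjusted p = 0.035 over all probes). Over the 32 members tested, the median difference of the responses was 0.18, beside -0.02 over all 12324 genes tested, and 24 of 32 had a value above 0. The other lysosomal genes had a median of 0.04, with 46 of 84 above 0. Members and lists were chosen with earlier results of these data known, so this contrast is a description only. Over the 28 members tested in both lines, the median was 0.19, and 22 of 28 had a value above 0. Of these 28, 16 had a difference above 0 in adipocytes and below 0 in macrophages, 3 the reverse, 4 were above 0 in both and 5 below 0 in both, and most of these differences did not pass on their own. This split by sign was not counted over all genes, so it is a description of the 28 only. Among the other lysosomal genes, Npc1 was the only one of 84 tested to pass (0.53, adjusted p = 0.0104). Ulk1 passed among the autophagy genes (0.90, adjusted p = 0.0148).

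The last question was which lysosomal genes set the lines apart. Adipocytes had less mRNA of most of the 11 proteases. They had more of 4 of the 5 membrane proteins, with Lamp2 depending on the probe, and of 2 of the 3 tested pump subunits. In monolayer, 11 of 32 tested genes were higher in adipocytes and 18 lower, while over all genes 65.7% were called, 33% higher and 32.7% lower. In bilayer, 12 were higher and 18 lower, while over all genes 66.1% were called, 33.2% higher and 32.9% lower. The median of the 32 was -0.68 in monolayer and -0.65 in bilayer, beside -0.02 over all genes tested in monolayer. Placing genes below noise at their bounds could not move these medians, since each stayed on the same side of the median. The other lysosomal genes were evenly split, with 33 of 84 higher and 32 lower in monolayer, and a median of -0.03. This contrast with the members is again a description, given how the members and lists were chosen. Of 31 other membrane proteins, 13 were higher and 12 lower, and of 16 other pump subunits, 7 were higher and 5 lower. Of 37 other enzymes and cofactors, 13 were higher and 15 lower. In bulk samples of this kind a difference in the share of cells making a gene and in the mRNA per cell cannot be told apart.

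Among the proteases, 9 of 11 were lower in monolayer adipocytes than in monolayer macrophages and 2 were higher, with the same counts in bilayer. Ctsc (dipeptidyl peptidase I) averaged -3.73 ± 1.57 in bilayer adipocytes and -1.28 ± 3.31 in monolayer adipocytes (SD, n = 3 each), beside 294 ± 2.85 in bilayer macrophages and 266 ± 7.76 in monolayer macrophages (SD, n = 2 each). It was not above noise in adipocytes, so its level there was at least 11.5-fold lower in bilayer and at least 10.5-fold lower in monolayer, where a bound is taken against the higher of the noise bound and the probe's own value on each array. The aminopeptidase Ctsh was in the same position, at least 10.9-fold lower in bilayer and at least 9.76-fold lower in monolayer. Ctss averaged 15.4 ± 4.56 in bilayer adipocytes and 9.78 ± 14.5 in monolayer adipocytes, beside 735 ± 73.1 in bilayer macrophages and 753 ± 62.3 in monolayer macrophages. Its difference was -4.59 in bilayer, where all 3 adipocyte arrays were above noise. In monolayer it was above noise on 1 of 3 adipocyte arrays, and its fitted difference lay between -3.48 and -6.30 over the alternatives. Ctsz averaged 471 ± 32.2 in bilayer adipocytes and 398 ± 58.3 in monolayer adipocytes, beside 6171 ± 130 and 6778 ± 573 in bilayer and monolayer macrophages, with differences of -3.67 and -4.05 and no overlap. Lgmn, which activates other cathepsins by cleavage, differed by -2.47 in bilayer and -2.48 in monolayer. Differences were smaller for Ctsa (-1.82 and -1.97), Ctsl (-1.14 and -1.59), Ctsd (-0.85 and -1.06) and Ctsb (-0.30 and -0.63), and each of these passed.

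The proteases that were higher in adipocytes were Ctsk and Tpp1. Ctsk, a collagen-degrading cathepsin known from osteoclasts and also made by fibroblasts and fat cells, read 459, 426 and 518 in bilayer adipocytes and 511, 420 and 449 in monolayer adipocytes, against -0.966 and 1.94 in bilayer macrophages and -0.549 and -7.05 in monolayer macrophages. It was not above noise in macrophages, and was at least 17.9-fold higher in bilayer adipocytes and at least 17.6-fold higher in monolayer adipocytes. The 10 fibroblast and preadipocyte markers summed to 37692 to 38423 units on the bilayer adipocyte arrays and 38024 to 40425 on the monolayer ones, against 174.9 to 232.5 and 188.6 to 214.2 on the bilayer and monolayer macrophage arrays, and their part in the Ctsk level was not tested. Tpp1, a serine peptidase that removes tripeptides, averaged 1202 ± 49.5 in bilayer adipocytes and 1105 ± 81.0 in monolayer adipocytes, beside 460 ± 29.5 and 426 ± 34.1 in the macrophage groups, a difference of 1.35 in bilayer and 1.34 in monolayer.

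Of the enzymes for sugars and lipids, 3 were higher and 5 lower in bilayer adipocytes, and 2 were higher and 6 lower in monolayer adipocytes. Gusb differed by -2.35 in bilayer and -2.04 in monolayer, with 10265 and 10106 in bilayer macrophages and 9743 and 10691 in monolayer macrophages. Lipa differed by -0.83 in bilayer and -1.94 in monolayer, and the change between these is the difference in response given above. Neu1 (-1.04 and -1.37), Man2b1, the lysosomal alpha-mannosidase (-0.85 and -1.05), and Hexa, the alpha subunit of beta-hexosaminidase (-0.61 and -0.74), were lower in both settings. Acid alpha-glucosidase (Gaa), which degrades lysosomal glycogen, averaged 1330 ± 85.6 in bilayer adipocytes and 1289 ± 42.8 in monolayer adipocytes, beside 567 ± 21.5 and 618 ± 75.2 in bilayer and monolayer macrophages (1.21 and 1.05). Acid ceramidase (Asah1) was also higher (0.60 and 0.65), and the call was lost with its next brightest probe in bilayer (0.04, adjusted p = 0.835) and in monolayer (0.30, adjusted p = 0.12). Glb1 did not pass in either setting (0.01 and 0.05, SE 0.06 each). Naglu, which acts on heparan sulphate, passed in bilayer (0.38, adjusted p = 0.00615) and not in monolayer (0.04), and the test of the difference between its responses did not pass (0.34, adjusted p = 0.293). Its bilayer call was lost without macrophage bilayer array 2 (0.25, adjusted p = 0.121). Alpha-galactosidase A (Gla) was dim, at 33.7 and 19.1 in bilayer macrophages and 36.9 and 35.3 in monolayer macrophages. It was above noise on no monolayer adipocyte array and was called at least 1.94-fold lower there (adjusted p = 0.00648). It was not called in bilayer adipocytes (-0.69, adjusted p = 0.0657), where 2 of 3 arrays were above noise and where it passed without adipocyte bilayer array 2 (-0.89, adjusted p = 0.028) or array 3 (-0.83, adjusted p = 0.0468).

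Progranulin (Grn), a secreted and lysosomal glycoprotein, averaged 3486 ± 295 in bilayer adipocytes and 3292 ± 170 in monolayer adipocytes, beside 10303 ± 92.3 and 11137 ± 978 in the macrophage groups (-1.56 and -1.75). Prosaposin (Psap), the precursor of the saposins that present lipids to their hydrolases, was slightly higher in adipocytes (0.39 in bilayer and 0.21 in monolayer). The monolayer call of Psap (adjusted p = 0.0302) was lost without macrophage monolayer array 1 (0.13, adjusted p = 0.288), adipocyte monolayer array 2 (0.19, adjusted p = 0.0776) or array 3 (0.21, adjusted p = 0.0576).

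Among the 5 membrane proteins, 4 were higher in adipocytes and Gpnmb was lower, in both settings, with Lamp2 higher by its brightest probe and lower by the mean of its probes. The calcium channel Mcoln1 averaged 436 ± 67.8 in bilayer adipocytes and 385 ± 46.2 in monolayer adipocytes, beside 154 ± 14.5 and 154 ± 12.1 in bilayer and monolayer macrophages (1.40 and 1.23). Scarb2 differed by 0.89 and 0.52, and Lamp1 by 0.66 and 0.37. Gpnmb was above noise on no adipocyte array, and its level there was at least 43.3-fold lower than in macrophages in bilayer and at least 73.7-fold lower in monolayer. Of the tested pump subunits, Atp6v0d1 was higher in adipocytes (1.12 in bilayer and 1.57 in monolayer) with all 4 of its probes, Atp6v1a was higher (0.58 and 0.36) and Atp6v1h lower (-0.60 and -0.42), a call lost with its next brightest probe (-0.23, adjusted p = 0.509, and -0.33, adjusted p = 0.34). Tfeb was lower in bilayer adipocytes (-0.83, adjusted p = 0.00681) and just missed the threshold in monolayer (-0.57, adjusted p = 0.0501). Its monolayer difference passed under several alternatives, the replicate block among them, with adjusted p between 0.0137 and 0.0497. It did not pass under the others.

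**Figure D4:**
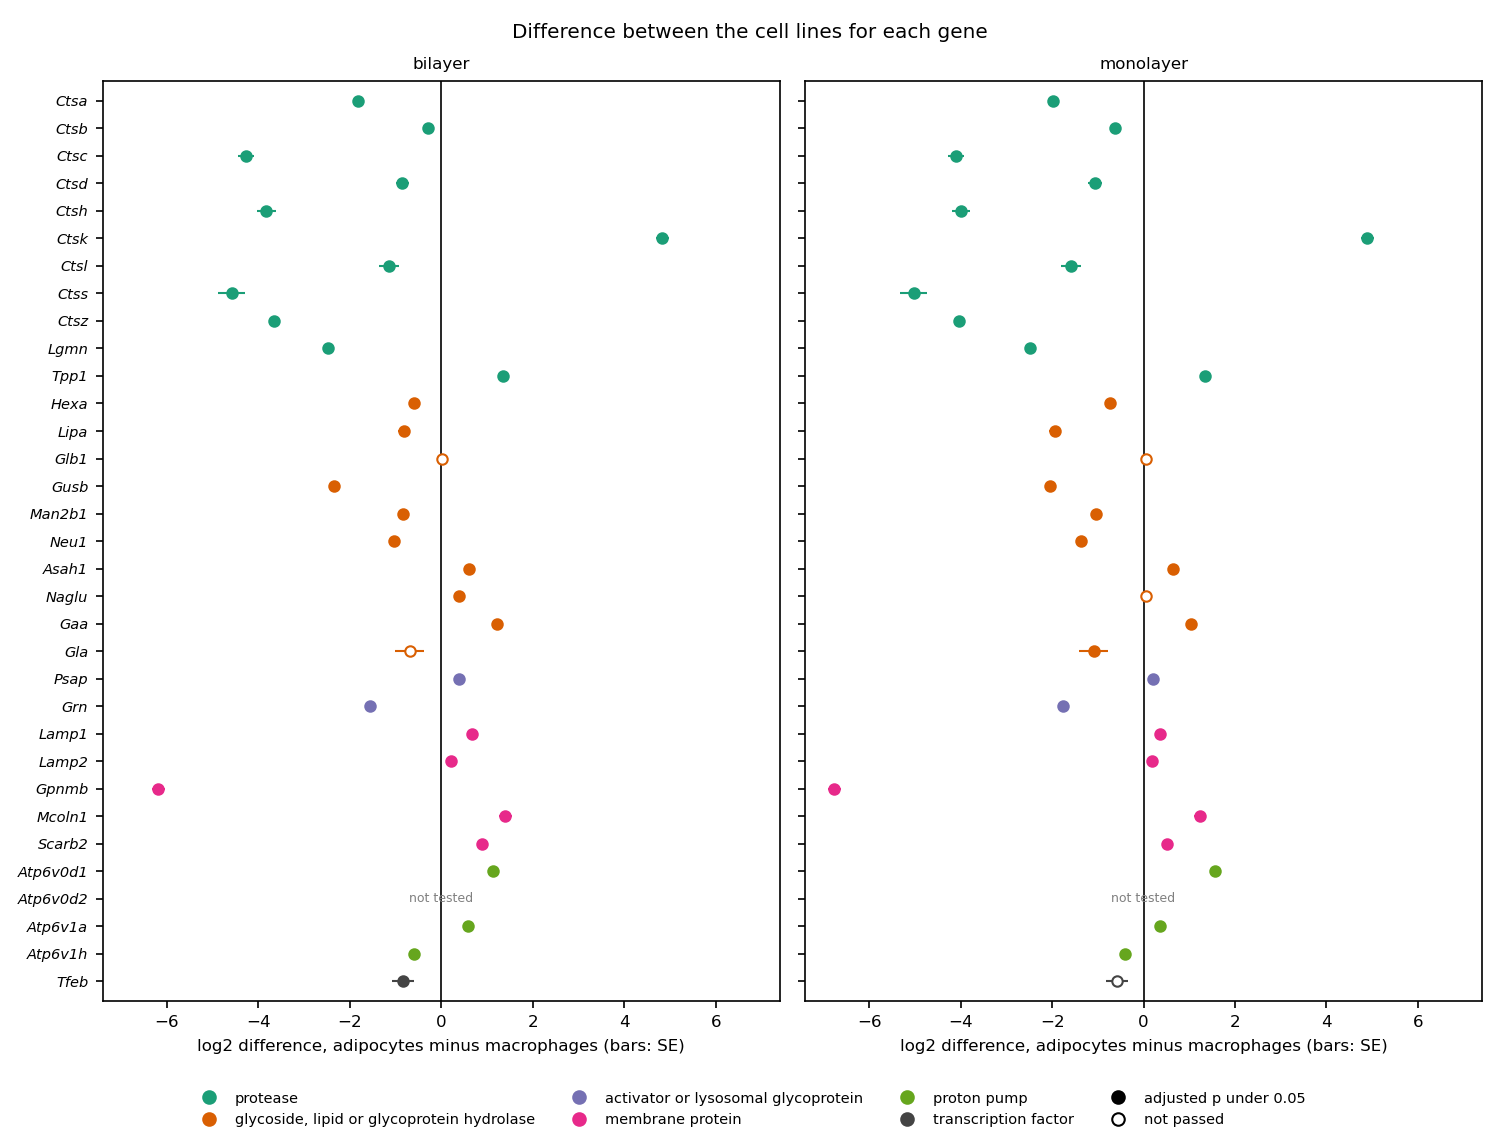
Log2 difference, adipocytes minus macrophages, of each of the 33 genes in bilayer (left) and monolayer (right), with bars for the standard error, colours for roles and filled points for an adjusted p under 0.05. Most proteases lie left of 0, Ctsk and Tpp1 right of it, and 4 of 5 membrane proteins right of it (Lamp2 by its brightest probe, and left of 0 by the mean of its probes), with Gpnmb the farthest left; the points of Ctsc, Ctsh, Ctsk and Gpnmb, and of Gla in monolayer, set a group with no array above noise against the other and are not sizes.

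Different probes of a gene mostly gave the same direction between the lines, with exceptions, and did so less often for the bilayer responses. In bilayer against monolayer adipocytes, the probes had one sign for 4 of the 11 genes with several passing probes. The count was 7 of 14 in macrophages and 7 of 15 for the difference of the responses. In these 3 comparisons 0 genes had probes called in opposite directions. Between the lines in monolayer, 15 genes had several probes above the filter, the probes of 11 had one sign, and 3 genes had probes called in opposite directions. For Lamp2, a membrane glycoprotein needed for fusion with autophagosomes, 2 probes that the platform assigns to one transcript were higher in monolayer adipocytes (0.19 and 0.25). The 3 probes assigned to another transcript were lower (-0.95, -0.82 and -0.90). The direction for Lamp2 therefore turns with the probe: the brightest gave 0.19 and the mean of all passing probes -0.45 in monolayer, and 0.21 and -0.34 in bilayer. The monolayer call of the brightest probe was also lost without adipocyte monolayer array 1 (0.16, adjusted p = 0.0512) or macrophage monolayer array 2 (0.14, adjusted p = 0.142), and the bilayer call without macrophage bilayer array 1 (0.18, adjusted p = 0.0725). The bilayer call for Ctsa was lost with the mean of its passing probes (-0.30, adjusted p = 0.0678). For Ctsa, 4 probes were lower in monolayer adipocytes (-0.98 to -1.97) and 1 was higher (2.83). That probe read 103, 96.1 and 95.5 in monolayer adipocytes and -2.27 and -5.82 in monolayer macrophages. For Gusb, 3 probes were lower (-2.04 to -2.47) and 1 was higher (0.87).

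**Figure D5:**
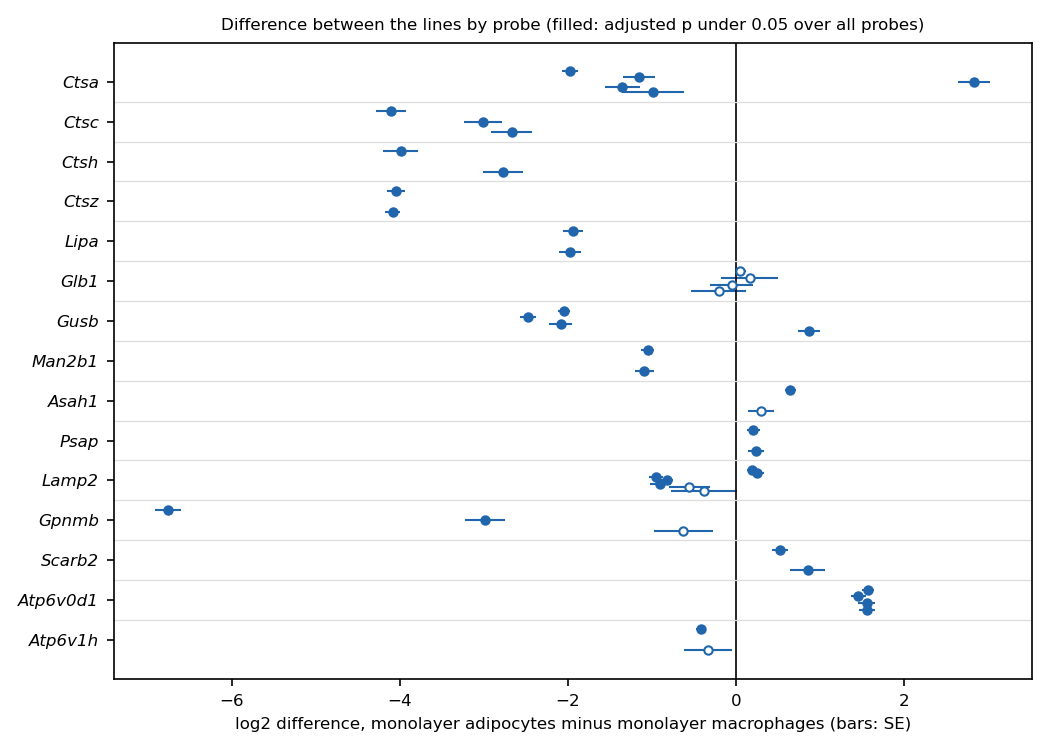
Log2 difference, monolayer adipocytes minus monolayer macrophages, for every passing probe of the 15 genes with several, with bars for the standard error and filled points for an adjusted p under 0.05 over all probes. Ctsa, Gusb and Lamp2 have filled points on both sides of 0, while the 4 probes of Atp6v0d1 lie together.

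With promoters grouped by CACGTG, the 12 genes that had it had a median difference between monolayer adipocytes and monolayer macrophages of 0.05, with 5 higher and 5 lower. The 16 tested genes with a window and no CACGTG had a median of -1.21, with 5 higher and 10 lower. In bilayer the medians were 0.20 and -0.84. The genes without it include Gpnmb, Ctss, Ctsz and Ctsc, and the grouping is a description of these windows.

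Beyond the set, 2 other membrane proteins of the lysosome lay far apart between the lines in monolayer. Cd63, a tetraspanin of late endosomes, averaged 3975 ± 198 in monolayer adipocytes (SD, n = 3) and 29.8 ± 4.30 in monolayer macrophages (SD, n = 2) with the probe that was above noise on every array. Its brightest probe averaged 13635 and -3.09 in these groups, and another probe 3602 and 8.42. Neither of these was above noise on any monolayer macrophage array, so the probes differ on whether macrophages have Cd63 mRNA. Laptm5, a membrane protein of blood cells, was above noise on no adipocyte array and at least 679-fold lower there. Among the sorting genes, Sort1, the receptor sortilin, was higher in adipocytes (7.70), as was Igf2r, the large mannose 6-phosphate receptor (3.63), while the small one, M6pr, was lower (-1.63). The pump subunit Tcirg1, an isoform of the a subunit known from osteoclasts, was lower (-2.57).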

How the data were processed

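Messenger RNA was measured on 10 Illumina bead arrays. The deposited values were linear probe intensities, many below 0, which the authors had background-subtracted and normalized, with a procedure that is not given in the sources used here. Over all 10 arrays of both lines, the array medians lay between 5.08 and 5.101 units. The share of values below 0 lay between 35.494% and 35.507%. Differences between the lines are therefore relative to this shared scale. The submitters' processing notes list GenomeStudio 2011.1 without saying what it did. Another 20 deposited columns, from slides of 6 and 4 arrays, carried no sample names and were left out.

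Probes with 1 gene symbol (34885) were used. Intensities below 0 were set to 0, 16 was added and log2 taken, so differences of dim genes are understated. The noise bound was the 99th percentile of the sizes of values below 0. A gene was tested where a probe exceeded it on at least 2 arrays of the line compared (of all 10 across lines), and the passing probe with the highest mean represented it. Limma 3.58.1 in R 4.3.3 was fitted to all 10 arrays and 4 groups with a variance trend, and two-sided p-values were adjusted by Benjamini-Hochberg over all genes tested. The spread was pooled over groups, so p-values reflect the spread among these dish pools and nothing wider. The code was tested on simulated data. The number of arrays limits the precision.

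The members and lists were chosen with earlier results of these data known. All members called in a bilayer comparison are named, the 8 largest differences each way across lines are described, and other list genes are the largest called. Alternatives changed the pseudocount, filter, variance trend, groups fitted, normalization, probe rule, replicate block and arrays included. The next brightest probe was added after seeing the data. Same-numbered arrays did not deviate together (correlations between -0.026 and 0.035), so the numbers were not taken as pairs. Promoters were RefSeq windows of GRCm38.p6.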

Additional observations from a re-analysis of the deposited data

Results flagged for a closer look

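The bilayer response of Lipa differed between the lines by 1.11 on the log2 scale (adipocyte minus macrophage), and that of Atp6v0d1 by -0.45, both by limma's test of the difference itself. The adipocyte arrays of Lipa were all higher in bilayer and the macrophage arrays all lower in bilayer. For Atp6v0d1 the macrophage groups did not overlap and the adipocyte groups did.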

How the results depend on the processing

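With no filter on dim probes, which tests more genes, 1 member was called in adipocytes in place of 4 (Gusb), 0 in macrophages in place of 1, and 0 for the difference of the responses in place of 2. Without the variance trend, 1 was called in adipocytes (Ctsa), 0 for the difference of the responses, and in macrophages 1, Gpnmb in place of Lipa. In macrophages a pseudocount of 4 gave 0, one of 64 gave 2, and fitting the macrophage arrays alone gave 4. The cause was not tested. Leaving out 1 array gave 3 to 5 calls in adipocytes, 0 to 0 in macrophages, 1 to 2 for the difference, 28 to 28 between the lines in monolayer (main value 29) and 29 to 31 in bilayer (main value 30). The mean of passing probes turned Scarb2 in adipocytes to 0.32 and Lamp2 between the lines to -0.45 in monolayer and -0.34 in bilayer, and the next brightest probe turned Scarb2 to 0.64. Over all genes, the adipocyte count of 1206 was 609 with no filter, 598 without the trend and 687, 780 and 799 without monolayer array 1, monolayer array 2 or bilayer array 2. The count of 315 for the difference was 104 with no filter, 81 without the trend and 104 to 314 with 1 array left out, and the macrophage count of 70 was 168 with those arrays alone and 11 to 36 with 1 array left out. The replicate block left 4, 1, 2 and 30 calls in adipocytes, macrophages, the difference and bilayer, and gave 30 in monolayer by adding Tfeb. Quantile normalization and median centring left the 3 bilayer counts as they were. The deposited arrays were already on nearly the same scale, so these settings could change little and are a weak check. Background correction of the scanner values and a slide block were not run, since those columns carry no sample names. Genes near the noise bound (Tfeb, Gla, Ctss, Ctsl) have the widest errors.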
